A study of Rattus norvegicus with 30 samples.

Results

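Microglia of the injured (ipsilateral) hemisphere were compared with microglia of the opposite (contralateral) hemisphere in 3-month-old rats, 3 days after a transient stroke. The comparison uses 6 of the 30 arrays of the series, chosen by sample title: 3 of the injured and 3 of the opposite hemisphere. The sample codes tie the hemispheres in pairs, so the 6 arrays come from 3 animals. All rats were male, and their middle cerebral artery had been closed with a monofilament for 75 min under isoflurane. The strain is given as Wistar Kyoto in the sample characteristics and as spontaneously hypertensive in the protocols. The 2 other pairs of groups used here had the same occlusion: injured and opposite hemisphere at 12 months on day 3, and at 3 months on day 14, with 3 arrays in each group. The opposite hemisphere belongs to an animal with a stroke and is not tissue of an uninjured rat. The method of isolating the microglia was not stated in the sources used here.

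Microglia are the resident macrophages of the brain. In healthy tissue they survey their surroundings and carry a set of receptors and transcription factors that sets them apart from other macrophages. After a stroke they take up debris and lipid, secrete cytokines and divide, and monocytes, neutrophils and macrophages of the brain's borders can lie in the same tissue. The arrays measured bulk RNA, so more cells of a type and more RNA per cell cannot be told apart.

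The values are log2 signals of Affymetrix Rat Gene ST arrays, normalised by the authors, and a change is the mean of the injured minus the mean of the opposite arrays (n = 3 each) with limma's standard error. A gene was called at a Benjamini-Hochberg adjusted p under 0.05 over the 11675 genes tested. Of these, 1339 were called higher (11.5%) and 1045 lower (8.95%), 2384 or 20.4% in all. At least 2-fold changes were called for 185 genes upward (1.58%) and 46 downward (0.394%). The 3 injured arrays all lay above the 3 opposite arrays for 15.5% of genes and all below for 14.6%. In 23% of genes every animal was higher on the injured side, and in 24.3% every animal was lower. On the first principal component of the 6 arrays (64.7% of the variance) the injured arrays lay at 27.2, 18.6 and 10.6 (animals 1 to 3), and the opposite arrays at -20.3, -20.1 and -16.1. The array medians were 5.19 to 5.22 in the injured and 5.19 to 5.24 in the opposite hemisphere. Signals at or below an array's 30th percentile (4.27 to 4.35) were treated as not measurable, and a change against such a group is given as "at least".

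The label was checked against marker genes. The 18 microglial markers averaged 9.95 to 10.15 on the injured arrays and 10.40 to 10.49 on the opposite arrays, and 11 fell and 2 rose. The 14 markers of monocytes and their macrophages averaged 7.05 to 8.20 on the injured and 6.31 to 6.39 on the opposite arrays, and 13 rose (8 without both arrays of animal 1). Markers of border-associated macrophages averaged 7.03 to 7.64 against 5.84 to 6.39, and 8 of 9 rose. As written, the monocyte and border macrophage lists share F13a1 and Ms4a7, so their counts can include the same genes. Neutrophil markers averaged 5.80 to 6.29 against 5.26 to 5.64, and 5 of 16 rose (31.2%, against 11.5% of all genes). Neurons (9 genes, 4.65 to 4.73 against 4.70 to 4.86), astrocytes (10 genes, 4.81 to 4.92 against 4.92 to 5.03) and oligodendrocytes (8 genes, 5.29 to 5.43 against 5.44 to 5.49) had no marker called by limma, and 0, 1 and 2 of their genes had an unadjusted p under 0.05. Of the 12 markers of pericytes, smooth muscle and fibroblasts and the 5 of ependyma and choroid plexus limma called 0, with 1 unadjusted p under 0.05 in each list. Endothelial markers averaged 5.52 to 5.60 against 5.62 to 5.68. Of these 9 markers 3 fell (33.3%) and 1 rose (11.1%), but 1 fell and 0 rose without both arrays of animal 2. Of 6 markers of oligodendrocyte precursors 1 fell, of 8 of dendritic cells 1 fell, of 6 of B cells 1 rose, and of 13 of T and NK cells 1 rose and 1 fell. The part of monocytes, border macrophages and neutrophils in the changes below was not tested.

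The largest rises included secreted proteins, surface receptors and calcium-binding proteins. S100a11, a calcium-binding protein, had signals of 11.13, 10.67 and 8.87 on the injured arrays against 4.87, 4.95 and 5.72 on the opposite arrays, a change of 5.04 ± 0.58 (limma adjusted p = 1.6e-07). Ifitm1, an interferon-induced membrane protein, had 10.68, 9.68 and 8.51 against 5.63, 5.71 and 6.28 (3.75 ± 0.41, adjusted p = 7.3e-08). Slpi, a secreted inhibitor of leukocyte proteases, had 9.43, 9.70 and 7.52 against 5.38, 5.68 and 5.76 (3.28 ± 0.37, adjusted p = 1.3e-07). In all 3 genes the hemispheres were far apart and animal 3 had the lowest injured value.

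Apoc1, an apolipoprotein, had 10.18, 7.81 and 7.66 on the injured arrays against 5.08, 5.45 and 5.44 on the opposite arrays (3.23 ± 0.37, limma adjusted p = 1.2e-07), with animal 1 above the other two. Lilrb4, an inhibitory immunoglobulin-like receptor, had 9.43, 8.76 and 6.74 against 5.28, 5.17 and 5.52 (2.99 ± 0.44, adjusted p = 7.1e-06). Anpep, aminopeptidase N, a surface enzyme of myeloid cells, had 8.56, 7.24 and 5.76 against 4.35, 4.17 and 4.29 (2.92 ± 0.37, adjusted p = 8.3e-07). The opposite arrays of these genes were close together, and the spread lay on the injured side. Those of Anpep lay around the floor, so the size of its rise is uncertain. Hopx, a small homeodomain protein that does not bind DNA itself, had 8.70, 7.03 and 6.28 against 4.13, 4.55 and 4.65 (2.89 ± 0.31, adjusted p = 5.7e-08). Cd14, the lipopolysaccharide co-receptor, had 10.50, 10.34 and 10.38 against 7.15, 7.15 and 8.12 (2.94 ± 0.21, adjusted p = 3.8e-11). Its injured arrays lay close together, and the opposite array of animal 3 stood above the other opposite arrays. Spp1, the secreted matrix protein osteopontin, had 10.87, 11.12 and 10.69 against 5.99, 6.14 and 6.27 (4.76 ± 0.28, adjusted p = 5.2e-13). Gpnmb, a membrane glycoprotein of lipid-laden macrophages, had 11.21, 10.98 and 10.81 against 6.93, 7.01 and 8.08 (3.66 ± 0.21, adjusted p = 5.2e-13). In Cd14, Spp1 and Gpnmb the injured arrays of the 3 animals were about level, unlike those of Anpep and Apoc1.

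**Figure D1:**
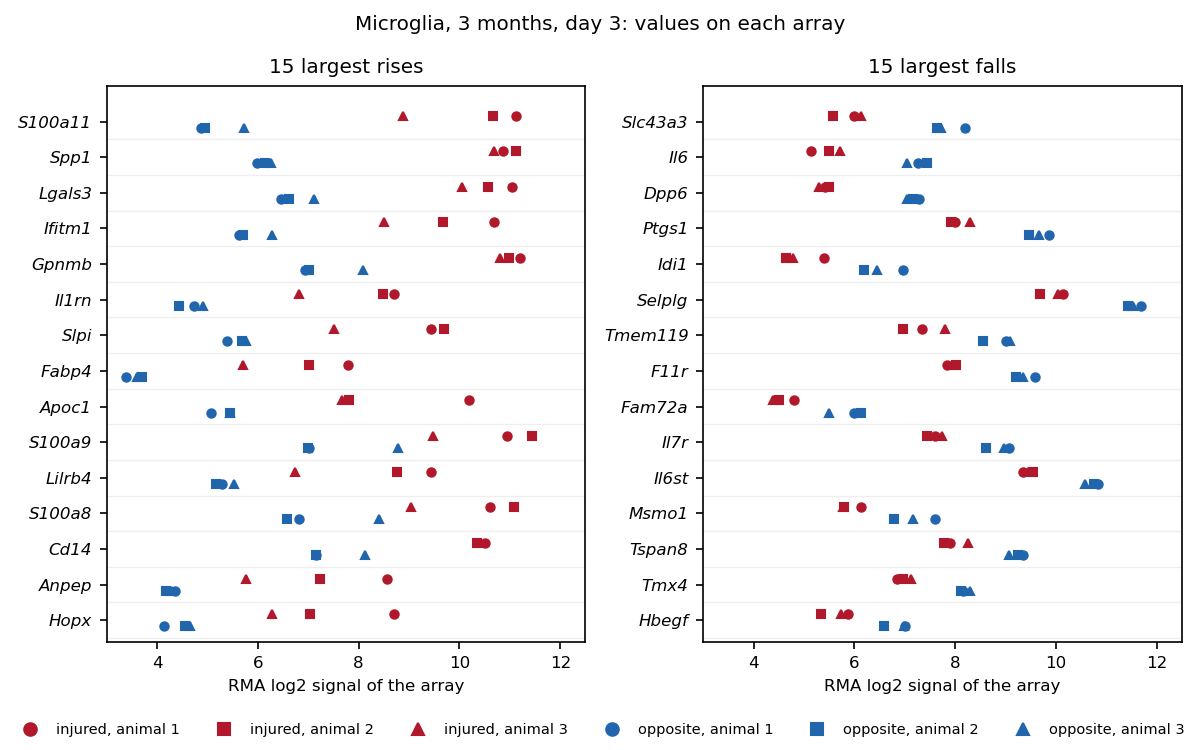
RMA log2 signal (horizontal axis) of the 15 genes with the largest called rises (left) and falls (right) on each of the 6 arrays, injured hemisphere in red above opposite hemisphere in blue, with a symbol for each of the 3 animals. The injured arrays of many rising genes are spread out, as in S100a11 with 11.13, 10.67 and 8.87, and those of others lie close together, as in Spp1 with 10.87, 11.12 and 10.69 and, among the falling genes, in Dpp6 with 5.41, 5.49 and 5.30.

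The largest falls included genes of transport, prostaglandin synthesis and adhesion. Slc43a3, a nucleobase transporter, had 6.0, 5.58 and 6.14 on the injured arrays against 8.20, 7.63 and 7.71 on the opposite arrays (-1.94 ± 0.18, limma adjusted p = 2.3e-09). Dpp6, an accessory subunit of voltage-gated potassium channels, had 5.41, 5.49 and 5.30 against 7.29, 7.16 and 7.04 (-1.76 ± 0.15, adjusted p = 7.6e-10). Ptgs1, the constitutive cyclooxygenase of prostaglandin synthesis, had 7.99, 7.92 and 8.29 against 9.86, 9.47 and 9.66 (-1.60 ± 0.14, adjusted p = 1.9e-09). In these genes every injured array lay more than 1 log2 unit below every opposite array. Selplg, the P-selectin ligand and a gene of the microglial marker list, had 10.14, 9.68 and 10.03 against 11.68, 11.42 and 11.52 (-1.59 ± 0.14, adjusted p = 1.3e-09). F11r, a junctional adhesion molecule, had 7.83, 8.01 and 7.93 against 9.58, 9.21 and 9.35 (-1.46 ± 0.12, adjusted p = 4.2e-10). Tspan8, a tetraspanin, had 7.89, 7.77 and 8.26 against 9.34, 9.24 and 9.06 (-1.24 ± 0.12, adjusted p = 4.2e-09). Tmx4, a thioredoxin-related membrane protein, changed by -1.21 ± 0.18 and Fam72a by -1.30 ± 0.22 (adjusted p = 1.1e-05 and 6.1e-05). The groups did not overlap in any of these 8 genes. A pair of enzymes of cholesterol synthesis was also among the 15 largest falls. Idi1, which isomerises the isoprenoid building blocks, had 5.39, 4.64 and 4.79 against 6.96, 6.20 and 6.44 (-1.59 ± 0.21, adjusted p = 1.4e-06), and the sterol oxidase Msmo1 had 6.14, 5.79 and 5.77 against 7.59, 6.79 and 7.16 (-1.28 ± 0.19, adjusted p = 1e-05).

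Most genes of the ribosome rose, by small amounts. Of 72 cytosolic ribosomal protein genes 63 rose and 0 fell, and the median change was 0.42 (median of all genes tested -0.01). Without both arrays of animal 1, 53 rose, and after quantile normalization 45 rose. Rpsa, a protein of the small subunit that also serves as a laminin receptor, had 10.93, 10.54 and 10.69 on the injured arrays against 9.48, 9.29 and 10.05 on the opposite arrays (1.11 ± 0.14, limma adjusted p = 4.2e-07). Rpl10a of the large subunit had 10.95, 10.78 and 11 against 10.02, 9.93 and 10.28 (0.84 ± 0.09, adjusted p = 2.2e-08). Rplp0, a protein of the stalk that recruits elongation factors, had 11.16, 10.91 and 11.06 against 10.15, 10.19 and 10.37 (0.80 ± 0.08, adjusted p = 1.9e-08). The hemispheres did not overlap in these 3 genes. The medians of the list in animals 1 to 3 were 0.47, 0.42 and 0.36. Ribosomal protein genes have near-identical copies in the genome, and how the probes divide their signal among copies was not tested.

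In vertebrates the transcripts of ribosomal protein genes begin with a run of C and T, by which their translation is controlled. The 3 genes above are shown around their annotated starts (RefSeq, GRCr8), from 25 bases before to 20 bases after, with the longest run of C and T near the start in capitals.
Rpsa (chr8:128728854-128728898, plus strand): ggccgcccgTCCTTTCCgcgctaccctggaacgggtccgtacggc
Rpl10a (chr20:6390508-6390552, plus strand): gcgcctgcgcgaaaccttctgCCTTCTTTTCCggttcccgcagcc
Rplp0 (chr12:46718371-46718415, minus strand): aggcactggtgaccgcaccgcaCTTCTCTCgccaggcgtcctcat
The run spanned 11 bases in Rpl10a and 8 in Rpsa and Rplp0. It began 4 bases before the annotated start in Rpl10a and 3 in Rplp0, and spanned the start in both. In Rpsa it began 16 bases before the annotated start and ended upstream of it. Within 20 bases on either side of the start, 75.4% of the 61 cytosolic ribosomal protein genes with a promoter record had a run of at least 8 bases, against 20.4% of the 54 mitochondrial ones with a record and 14.9% of all 9672. These shares count a run anywhere in that span, so they do not say that a transcript begins with it. Whether the runs relate to the size of the changes was not tested.

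Other parts of the translation machinery moved less evenly. Of 36 translation factors 18 rose and 2 fell, with a median of 0.24, and 11 rose without opposite replicate 2 and 11 without injured replicate 1. Eif3l, a subunit of the initiation factor that joins the ribosome to the messenger, rose by 0.79 ± 0.11 (limma adjusted p = 3.2e-06), and Eef1b2, which recharges elongation factor 1 with GTP, by 0.75 ± 0.10 (adjusted p = 1.9e-06). The helicase Eif4a2 fell by 0.47. Of 68 mitochondrial ribosomal protein genes 28 rose and 0 fell (median 0.25; 17 rose without injured replicate 1 and 16 without both arrays of animal 1), led by Mrpl42 at 0.90 ± 0.19 and Mrps15 at 0.88 ± 0.12. Of 21 transfer RNA synthetases 2 rose (9.5%, against 11.5% of all genes) and 1 fell (4.8%, against 8.95%). Of 43 proteasome subunits 15 rose and 0 fell, and 6 rose without injured replicate 1, or without both arrays of animal 1.

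Most of the counted genes of complex I of the respiratory chain and of ATP synthase rose as well, and complexes III and IV were not counted. Of 32 subunits of complex I, which passes electrons from NADH to ubiquinone, 28 rose and 0 fell, with a median of 0.54. Without both arrays of animal 3, 20 rose. Ndufs5 had 8.02, 7.66 and 7.92 on the injured arrays against 6.74, 6.39 and 6.68 on the opposite arrays (1.26 ± 0.15, limma adjusted p = 3.1e-07), and Ndufa12 had 7.56, 7.45 and 7.51 against 6.55, 6.23 and 6.67 (1.03 ± 0.12, adjusted p = 1.5e-07). Of 16 ATP synthase subunits 15 rose, with a median of 0.63. Atp5po, a subunit of the stalk of the enzyme, had 9.10, 8.78 and 9.06 against 7.97, 7.73 and 7.95 (1.10 ± 0.11, adjusted p = 2.7e-08). All 3 genes were higher on the injured array in every animal, and the hemispheres did not overlap. Of 24 tricarboxylic acid cycle genes 10 rose and 0 fell (median 0.22; 6 rose without opposite replicate 2 and 6 without both arrays of animal 1), led by Suclg1, a subunit of succinyl-CoA ligase, at 0.58 ± 0.09. Of 18 subunits of the V-ATPase, the proton pump of lysosomes, 10 rose and 0 fell (median 0.30; 6 without opposite replicate 2, and 5 without injured replicate 1 or both arrays of animal 1).

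Among genes of fat burning, fat storage and peroxide defence more members were not called than rose, and few fell. Of 30 genes of fatty acid oxidation 9 rose and 1 fell. Etfb, which carries electrons from fatty acids into the chain, had 7.86, 7.60 and 7.48 on the injured arrays against 6.42, 6.63 and 6.57 on the opposite arrays (1.10 ± 0.12, limma adjusted p = 1e-07), and the dehydrogenase Hadh rose by 1.06 ± 0.13. Acsl3, which activates fatty acids for lipid synthesis, had 6.20, 6.51 and 6.65 against 7.72, 7.43 and 7.38 (-1.05 ± 0.13, adjusted p = 8.2e-07). Of 35 genes of lipid uptake and storage 15 rose and 1 fell (median 0.29). Plin2, the coat protein of lipid droplets, had 9.52, 9.39 and 8.68 against 7.60, 7.47 and 7.57 (1.65 ± 0.14, limma adjusted p = 1.1e-09). The fatty acid carrier Fabp4 had 7.78, 7.01 and 5.71 against 3.38, 3.70 and 3.61, and rose by at least 2.52 log2 units. Rxra, the partner of lipid-sensing nuclear receptors, rose by 1.04 ± 0.12, and the nuclear receptor coactivator Ncoa3 fell by 0.87 ± 0.11.

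Of 42 glutathione and antioxidant genes 19 rose and 3 fell (median 0.24), and 1 fell without opposite replicate 1, without injured replicate 1 or without both arrays of animal 1. Prdx5, a peroxidase, had 10.64, 9.84 and 9.17 on the injured arrays against 7.62, 7.26 and 7.75 on the opposite arrays (2.34 ± 0.21, limma adjusted p = 3e-09). Mgst2, a microsomal glutathione transferase, had 7.55, 5.89 and 4.35 against 3.77, 3.94 and 3.99, a rise of at least 1.62 (adjusted p = 0.00023). Its injured value in animal 3 was close to the opposite arrays. Mgst1 had 7.57, 6.58 and 5.12 against 5.11, 5.30 and 4.70 (1.39 ± 0.31, adjusted p = 0.0012), and its groups overlapped. Hmox1, the inducible haem oxygenase, stood at -0.17 ± 0.13 and was not called (adjusted p = 0.43). Of 28 genes of pyrimidine and purine metabolism 10 rose (35.7%, against 11.5% of all genes) and 4 fell (14.3%, against 8.95%), with a median of 0.09. Of these genes 6 rose without injured replicate 1 or both arrays of animal 1, and 2 fell without injured replicate 2. The purine breakdown enzymes Gda, a guanine deaminase, and Xdh, xanthine dehydrogenase, rose by 2.27 ± 0.25 and 1.16 ± 0.20. The deoxycytidylate deaminase Dctd fell by 0.92 ± 0.13. The nucleoside importer Slc28a2 rose by 1.49 ± 0.25.

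Many chaperone genes fell. The group of 71 heat shock proteins and co-chaperones was put together by symbol after its members' values had been seen. Of the 71, 23 fell and 4 rose, and the median change was -0.11. Hspb1, a small heat shock protein, had 9.94, 9.90 and 10.08 on the injured arrays against 11.23, 10.99 and 11.16 on the opposite arrays (-1.16 ± 0.11, limma adjusted p = 9.7e-09). Bag3, a co-chaperone of Hsp70 in autophagy, had 9.50, 9.35 and 9.38 against 10.59, 10.35 and 10.49 (-1.07 ± 0.13, adjusted p = 5.6e-07). Dnaja1, of the Hsp40 family, had 10.25, 10.37 and 10.42 against 11.55, 11.35 and 11.21 (-1.02 ± 0.11, adjusted p = 3e-08). In these genes the 3 arrays of a hemisphere lay within 0.4 log2 units of each other and the hemispheres did not overlap.

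The mitochondrial chaperone Hspd1 had 9.71, 9.50 and 9.34 on the injured arrays against 10.60, 10.41 and 10.35 on the opposite arrays (-0.94 ± 0.11, limma adjusted p = 3.3e-07). Hsph1, a nucleotide exchange factor of Hsp70, fell by 0.80 ± 0.10, the cytosolic Hsp90 gene Hsp90aa1 by 0.66 ± 0.08 and the Hsp40 gene Dnajb1 by 0.62 ± 0.15. Among chaperones of the endoplasmic reticulum, Hspa5 stood at -0.51 ± 0.09 and Hsp90b1 at -0.33 ± 0.08, both called. Ddit3, a transcription factor of the stress of that compartment, had 8.88, 8.94 and 9.09 against 10.12, 9.85 and 9.97 (-1.01 ± 0.11, adjusted p = 6.7e-08), and Atf4, which drives it, fell by 0.46 ± 0.09. Over the alternatives tried, 18 to 25 genes of the chaperone group were called lower.

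Heat shock factor binds repeats of GAA and its complement, and a pair of these, GAANNTTC (N is any base, the same on both strands), was searched from 250 bases before to 50 bases after each start. It was present in 11 of the 21 heat shock genes called lower that had a promoter record, in 3 of the 39 others of the group with a record and in 6.0% of all 9672 promoters. Stretches of 6 of the genes described above are shown with the match or matches they hold in capitals (RefSeq, GRCr8).
Hspb1 (chr12:26432397-26432441, minus strand): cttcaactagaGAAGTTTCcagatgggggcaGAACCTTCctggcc
Bag3 (chr1:192533315-192533349, plus strand): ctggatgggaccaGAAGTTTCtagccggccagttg
Dnaja1 (chr5:60638389-60638428, plus strand): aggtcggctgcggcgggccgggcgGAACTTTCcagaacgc
Hspd1 (chr9:64084253-64084287, minus strand): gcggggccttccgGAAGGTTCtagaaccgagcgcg
Hsph1 (chr12:10427318-10427357, plus strand): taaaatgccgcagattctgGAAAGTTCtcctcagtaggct
Dnajb1 (chr19:41431114-41431161, minus strand): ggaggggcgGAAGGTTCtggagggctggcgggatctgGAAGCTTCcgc
Hspb1 and Dnajb1 held a pair of matches each in these stretches, and Dnaja1 held another match elsewhere in its window. Hspa5 and Hsp90b1 held no match in this window, and Hsp90aa1 was not among the 11 genes with a match. The match began 129 bases before the start in Hspb1, 132 in Bag3, 237 in Hspd1 and 31 in Hsph1. A match describes the letters of the window and is not a measured binding site. Of the 11 motifs searched, the AP-1 motif TGANTCA was in 11.1% of the 153 promoters of genes called at least 2-fold higher and in 15.8% of the 38 of genes called at least 2-fold lower, against 5.4% of all. The ETS-type motif GAGGAAGT was in 5.2% and 7.9%, against 2.7%. CCAAT was in 38.6% and 52.6%, against 37.7%, and the E-box CACGTG in 9.2% and 2.6%, against 8.9%. GAANNTTC was in 9.8% and 13.2%, against 6.0%. The 13.2% is 5 of the 38 promoters, and Hspb1, Bag3 and Dnaja1 are among them. The motif was added after the values of the heat shock group had been seen, so this share is not separate from that group. GAANNTTC was in 6.4% of the promoters of all genes called higher and in 6.7% of those called lower.

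**Figure D2:**
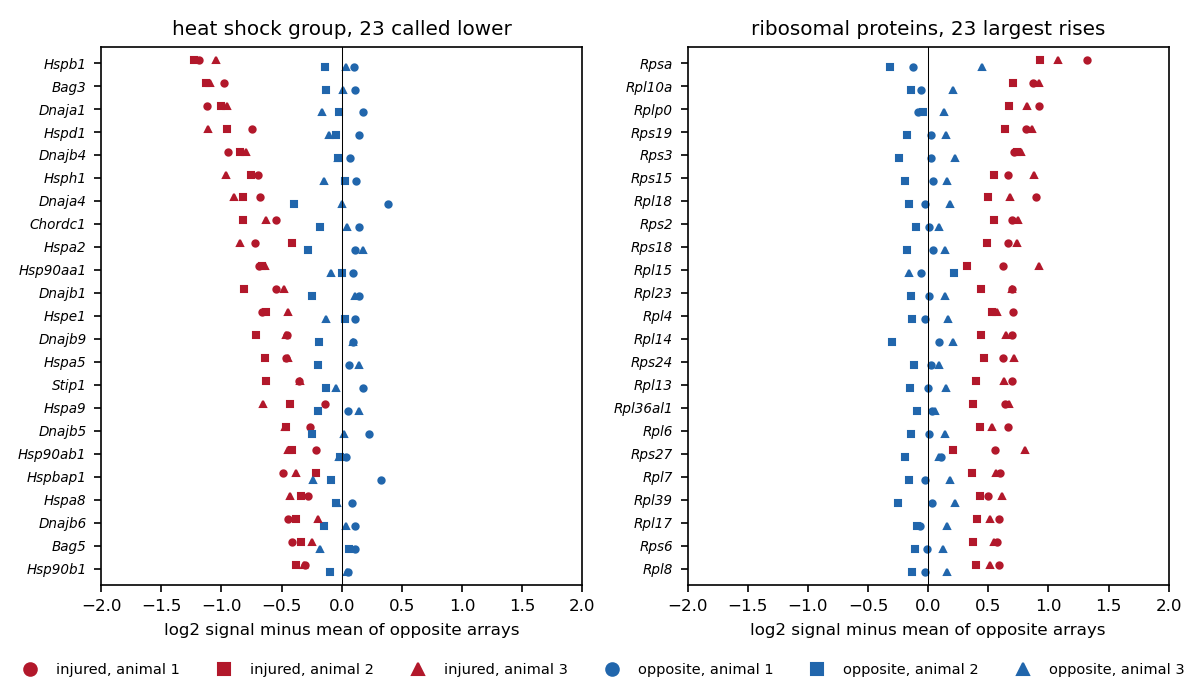
Log2 signal of each array minus the mean of the 3 opposite arrays (horizontal axis) for the 23 heat shock genes called lower (left) and the 23 cytosolic ribosomal protein genes with the largest rises (right), injured in red above opposite in blue, with a symbol for each animal. Hspb1 at -1.16 and Rpsa at 1.11 head the columns, and the injured arrays of the 3 animals lie near each other in both groups.

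Nuclear regulators moved in both directions, and the Kruppel-like factors that were called all fell. Of 64 myeloid and immune transcription factors 17 fell (26.6%, against 8.95% of all genes) and 9 rose (14.1%, against 11.5%). Without both arrays of animal 1, 10 fell and 5 rose. Sall1, a factor that keeps microglia apart from other macrophages, had 9.43, 9.60 and 9.85 on the injured arrays against 10.47, 10.42 and 10.55 on the opposite arrays (-0.85 ± 0.09, limma adjusted p = 5.8e-08). Smad7, an inhibitor of transforming growth factor signalling, had 6.96, 6.77 and 7.36 against 8.33, 7.88 and 8.29 (-1.14 ± 0.14, adjusted p = 3.4e-07). Tfec, a factor related to the regulators of lysosome genes, had 5.94, 5.80 and 5.43 against 4.01, 3.88 and 3.95, a rise of at least 1.41 (adjusted p = 6.3e-09). The 3 genes did not overlap between hemispheres. Of 15 Kruppel-like factors 6 fell and 0 rose (median -0.20), with Klf4 at -0.69 ± 0.16, Klf2 at -0.66 ± 0.18 and Klf7 at -0.66 ± 0.09. Klf2 had an adjusted p of 0.27 without both arrays of animal 1, and of 0.067 and 0.068 without its injured and its opposite array alone. Of these factors 3 fell without opposite replicate 1 and 2 without both arrays of animal 1. Of 130 zinc finger genes 18 fell (13.8%) and 1 rose (median -0.14), led by Zfp658 at -1.13 ± 0.14. Of these genes 10 fell without both arrays of animal 1, 9 without those of animal 3 and 31 after quantile normalization.

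Most of the splicing factors that were called fell. Of 63 splicing factors 17 fell (27.0%, against 8.95% of all genes) and 4 rose (6.3%, against 11.5%), with a median of -0.12. The 3 largest falls were in SR proteins, which help to choose splice sites. Srsf3 had 8.06, 7.87 and 7.84 on the injured arrays against 8.96, 8.41 and 8.58 on the opposite arrays (-0.73 ± 0.14, limma adjusted p = 0.0002), Srsf10 changed by -0.69 ± 0.10 and Srsf7 by -0.66 ± 0.10. The largest rises were in core proteins of the spliceosome. Snrpd2 had 10.80, 10.63 and 10.88 against 10.01, 9.75 and 10.05 (0.83 ± 0.12, adjusted p = 4.9e-06), and Snrpf rose by 0.78 ± 0.11. Of 50 chromatin modifiers 9 fell and 4 rose, and 3 fell without both arrays of animal 1, 4 without those of animal 3, and 2 rose without opposite replicate 2 or injured replicate 1. Of 42 inhibitors of MAP kinase and cytokine signalling 9 fell (21.4%, against 8.95% of all genes) and 6 rose (14.3%, against 11.5%). Socs2 stood at -1.20 ± 0.17 and the phosphatase Dusp2 at 1.55 ± 0.23. Of these inhibitors 5 fell without opposite replicate 1 and 3 without both arrays of animal 1, and 3 rose without both arrays of animal 2.

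Of 35 C-type lectins and scavenger receptors 20 rose and 2 fell (median 0.54), and 11 of the rises were at least 2-fold. Clec7a, which binds fungal glucans, had 9.23, 8.79 and 7.85 on the injured arrays against 5.94, 5.74 and 6.09 on the opposite arrays (2.70 ± 0.22, limma adjusted p = 2.8e-10). Clec4d, a lectin of neutrophils and monocytes, had 6.98, 7.20 and 5.00 against 4.13, 4.37 and 4.25 (2.14 ± 0.31, adjusted p = 7e-06). Its opposite arrays lay around the floor, so the size of its rise is uncertain. Of 30 Fc and paired immunoglobulin-like receptors 9 rose and 7 fell. Slamf9, a receptor of the SLAM family, rose by 2.03 ± 0.28 and Vsig4, a complement receptor of macrophages, by at least 1.59. Havcr2, the checkpoint receptor TIM-3, had 8.25, 8.41 and 8.64 against 9.55, 9.24 and 9.56 (-1.02 ± 0.10, adjusted p = 1.9e-08), and the checkpoint protein Vsir fell by 0.81 ± 0.08. Havcr2 and Vsir were measured well above the floor on both sides, whereas the opposite arrays of Vsig4 were at the floor.

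Of 48 cytokine and growth factor receptors 9 rose (18.8%, against 11.5% of all genes) and 7 fell (14.6%, against 8.95%). Of these receptors 5 rose without injured replicate 1 and 11 fell without opposite replicate 2. Csf2ra, the GM-CSF receptor, had 8.47, 8.20 and 8.31 on the injured arrays against 6.58, 6.39 and 6.61 on the opposite arrays (1.80 ± 0.11, limma adjusted p = 2.2e-12), and Il3ra, the interleukin-3 receptor, rose by 1.21 ± 0.15. Il1r2, the decoy receptor of interleukin-1 and a gene of the neutrophil marker list, had 7.42, 7.68 and 7.03 against 5.88, 5.60 and 6.07 (1.53 ± 0.23, adjusted p = 7.4e-06). Il6st, the signalling chain of the interleukin-6 family, had 9.34, 9.55 and 9.44 against 10.84, 10.76 and 10.57 (-1.29 ± 0.10, adjusted p = 1.8e-10). Its ligand Il6 had 5.14, 5.49 and 5.71 against 7.27, 7.45 and 7.04 (-1.81 ± 0.19, adjusted p = 4.6e-08), so ligand and receptor chain were both lower on the injured side in every animal. Il7r fell by 1.29 ± 0.17 and Il10ra by 0.67 ± 0.14. Hbegf, a ligand of the epidermal growth factor receptor, fell by 1.21 ± 0.17.

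Of 28 chemokine ligands 9 rose (32.1%, against 11.5% of all genes) and 1 fell (3.6%, against 8.95%). Cxcl1, a neutrophil attractant, had 11.23, 10.45 and 9.64 on the injured arrays against 8.54, 7.87 and 9.40 on the opposite arrays (1.83 ± 0.35, limma adjusted p = 0.00023), and Ccl6 rose by 1.80 ± 0.31. In animal 3 the Cxcl1 signals of the hemispheres were close. Among 18 chemokine receptors 4 rose (22.2%, against 11.5% of all genes) and 2 fell (11.1%, against 8.95%). Cxcr4, the receptor of Cxcl12, had 10.69, 9.67 and 8.43 against 7.19, 6.58 and 7.32 (2.57 ± 0.34, adjusted p = 1.5e-06). Of 49 signalling G protein-coupled receptors 14 fell (28.6%) and 5 rose (10.2%). The histamine receptor Hrh2 had 6.33, 6.10 and 6.15 against 7.29, 7.19 and 7.14 (-1.01 ± 0.13, adjusted p = 9.5e-07), and the adhesion receptor Adgrg1 fell by 0.88 ± 0.13.

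Of 259 solute carriers 36 fell (13.9%, against 8.95% of all genes) and 21 rose (8.1%, against 11.5%). Without opposite replicate 1, 21 fell, and without both arrays of animal 1, 17 fell and 13 rose. After Slc43a3 the largest falls were in the chloride cotransporter Slc12a2 (-0.94 ± 0.10) and Slc16a6, of the monocarboxylate transporter family (-0.94 ± 0.13). The choline transporter-like gene Slc44a2 fell by 0.94 ± 0.11. The lactate and pyruvate transporter Slc16a1 had 6.26, 6.29 and 6.25 on the injured arrays against 7.07, 7.17 and 7.31 on the opposite arrays (-0.92 ± 0.11, limma adjusted p = 3.1e-07). Its relative Slc16a3, the lactate exporter of glycolytic cells, had 8.35, 8.67 and 7.41 against 7.43, 7.09 and 7.48 (0.81 ± 0.18, adjusted p = 0.0012). The groups of Slc16a1 did not overlap, whereas in Slc16a3 animal 3 showed no rise, and without both arrays of animal 2 its adjusted p was 0.13. Tfrc, the transferrin receptor, had 6.08, 5.60 and 5.30 against 6.91, 6.31 and 6.87 (-1.04 ± 0.15, adjusted p = 7.1e-06).

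Of 58 genes of the actin cytoskeleton 20 rose and 3 fell (median 0.21). Diaph1, a formin that elongates filaments, had 6.29, 5.84 and 5.25 on the injured arrays against 4.69, 4.68 and 4.80 on the opposite arrays (1.07 ± 0.15, limma adjusted p = 3.6e-06), and Arpc1b of the branching complex Arp2/3 had 9.75, 9.49 and 9.22 against 8.69, 8.63 and 8.70 (0.81 ± 0.10, adjusted p = 9.8e-07). Actg1, cytoplasmic gamma-actin, rose by 0.59 ± 0.11, and Actb, cytoplasmic beta-actin, stood at 0.04 ± 0.07 and was not called (adjusted p = 0.78). Of 9 annexins, which bind membranes in the presence of calcium, 6 rose and 1 fell, with Anxa2 at 2.40 ± 0.22, Anxa6 at 1.59 ± 0.15 and Anxa1 at 1.44 ± 0.25. Among 56 Rab GTPases of vesicle transport 9 rose (16.1%, against 11.5% of all genes) and 6 fell (10.7%, against 8.95%). Without both arrays of animal 1, 2 fell. Rab13 stood at 1.36 ± 0.15 and Rab30 at -1.15 ± 0.15.

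Of 34 keratins limma called 0, 1 had an unadjusted p under 0.05, and their changes ran from -0.14 to 0.28. Of 30 olfactory and vomeronasal receptors limma called 0, and 0 had an unadjusted p under 0.05. Of 42 TRIM proteins 3 fell (7.1%, against 8.95% of all genes), and 6 without opposite replicate 2. Of 33 autophagy genes 3 fell (9.1%) and 1 rose, and 1 fell without opposite replicate 3, injured replicate 2 or injured replicate 3. In the last case 3 rose. Of 66 potassium channel genes 3 fell (4.5%) and 1 rose, and 1 fell and 0 rose without both arrays of animal 1.

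Of 25 interferon-induced genes, which include Ifitm1, 11 rose and 0 fell (median 0.34), but 6 rose without both arrays of animal 1 and 7 without those of animal 2 or without injured replicate 2. Of 41 hypoxia-inducible factor targets, which include Plin2, 12 rose (29.3%, against 11.5% of all genes) and 6 fell (14.6%, against 8.95%). Without both arrays of animal 1, 2 of these targets fell. Of 63 secreted cytokines and growth factors, which include Spp1 and Il6, 9 rose and 9 fell (14.3% each). Of 41 cell death regulators 9 rose (22.0%) and 4 fell (9.8%), and 2 fell without injured replicate 2. Of 13 S100 proteins 7 rose and 0 fell. Of 29 genes of the amino acid stress response, which include Ddit3, 6 fell and 1 rose.

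**Figure D3:**
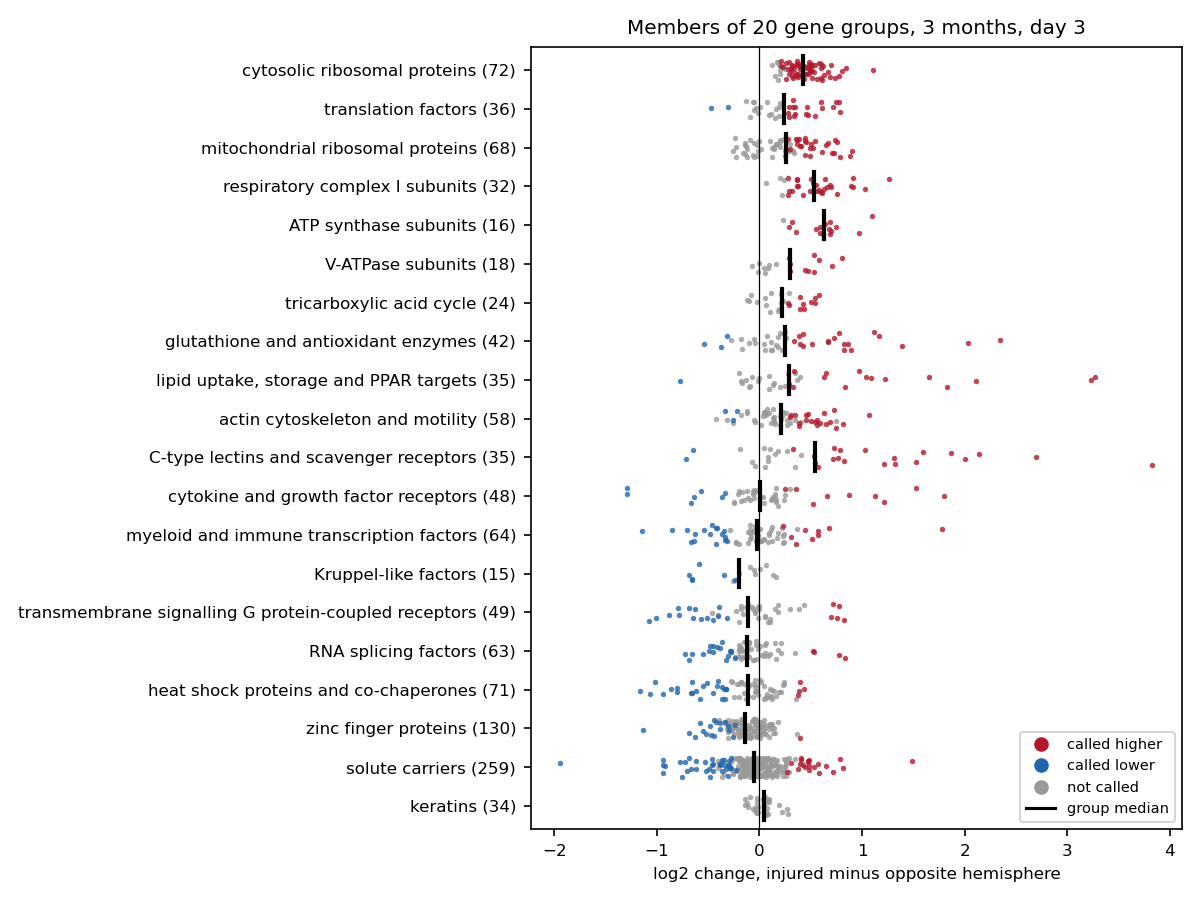
Log2 change, injured minus opposite hemisphere (horizontal axis), of each tested member of 20 gene groups, with the number of members in brackets. Red points were called higher, blue points lower and grey points not called, and a black bar marks the group median, such as 0.63 for ATP synthase and -0.20 for the Kruppel-like factors.

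The animals differed in the size of the rises. Over the 185 genes called at least 2-fold higher, the median difference between hemispheres was 1.92, 1.47 and 0.96 in animals 1, 2 and 3, and animal 3 had the smallest difference in 159 of them. Over the 46 genes called at least 2-fold lower it was -1.32, -1.10 and -1.08. The range over animals had a median of 1.12 for the rises and 0.36 for the falls, which is 0.72 and 0.29 of the size of the change. Differences of at least 1 log2 unit in either direction numbered 383, 262 and 132 genes in the 3 animals. The monocyte markers differed by a median of 1.74, 0.88 and 0.61 and the border macrophage markers by 2.19, 1.07 and 0.68, in the same order of animals, and their part in the rises was not tested. The microglial markers differed by -0.57, -0.56 and -0.38.

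The 5 called genes with the widest range over the animals were RT1-Da, Cd74, Fn1, S100a8 and S100a9. RT1-Da, a class II chain, had 11.25, 9.12 and 7.06 on the injured arrays against 6.95, 6.33 and 7.67 on the opposite arrays, and Cd74, the invariant chain, had 12.37, 10.55 and 8.97 against 9.23, 8.86 and 9.83. Both were called (2.16 ± 0.57 and 1.32 ± 0.43, limma adjusted p = 0.0054 and 0.028), yet animal 3 was lower on the injured side. Without both arrays of animal 1 the adjusted p was 0.19 for RT1-Da and 0.55 for Cd74, and without the injured array of animal 1 alone it was 0.11 and 0.42. Of 32 MHC genes 5 rose (15.6%, against 11.5% of all genes) and 2 fell (6.2%, against 8.95%). Of these MHC genes 3 rose without opposite replicate 2 or 3 and 1 without injured replicate 1. Without both arrays of animal 2, 2 rose, and without those of animal 1, 0 rose. S100a9, a subunit of the neutrophil protein calprotectin, had 10.94, 11.43 and 9.48 against 7.01, 7.00 and 8.78 (3.02 ± 0.52, adjusted p = 6.3e-05). Its partner S100a8 had 10.61, 11.09 and 9.03 against 6.82, 6.58 and 8.40, and in both genes the opposite array of animal 3 stood above those of animals 1 and 2. Fn1, the matrix protein fibronectin and a gene of the monocyte marker list, had 8.72, 6.91 and 5.30 against 4.86, 4.94 and 5.07 (2.02 ± 0.40, adjusted p = 0.0003), with animal 3 close to the opposite arrays.

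**Figure D4:**
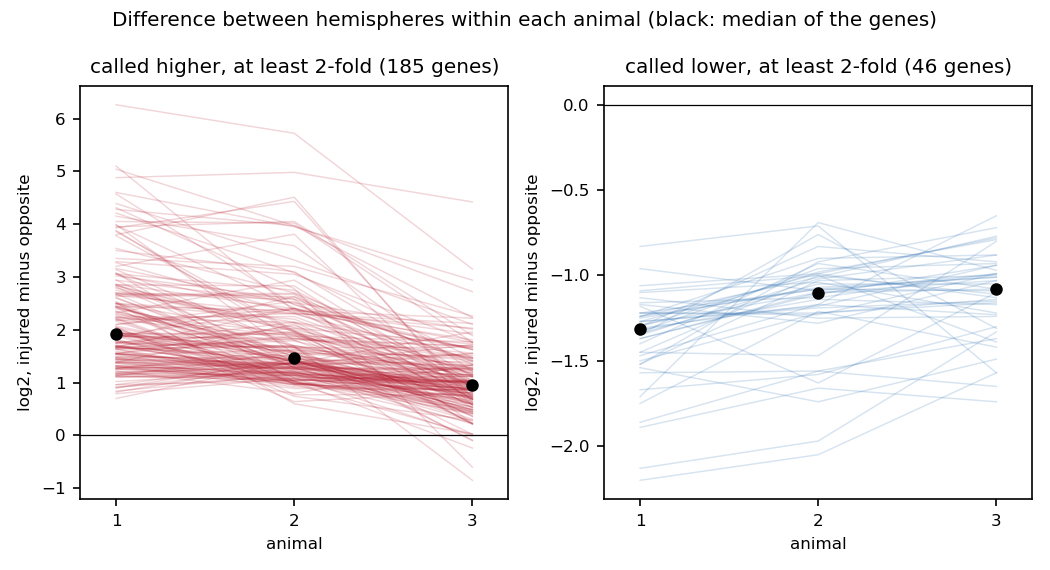
Difference between the injured and the opposite array of each animal (log2, vertical axis) for the 185 genes called at least 2-fold higher (left) and the 46 called at least 2-fold lower (right). A line joins the values of one gene and black points are medians, at 1.92, 1.47 and 0.96 on the left and -1.32, -1.10 and -1.08 on the right. The vertical scales differ between the panels.

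The change between hemispheres was set against that of 12-month rats on day 3, where 18.7% of genes were called higher and 10% lower. The difference of the changes, tested in the same model, was called higher at 3 months for 18 genes (0.154%) and lower for 166 (1.42%). After quantile normalization it was called higher for 15 and lower for 91. On day 3 the log2 signals of an array had a standard deviation of 1.79 to 1.87 at 3 months and of 1.96 to 2.05 at 12 months. The part of this spread in the differences was not tested. Of the 185 genes called at least 2-fold higher at 3 months, 166 were also called higher at 12 months, and of the 46 called lower, 45 were called lower there. A difference of the changes was called for 13 of the 185 and 0 of the 46. These genes were picked by the 3-month change that enters the difference, so these counts cannot be read against the shares of all genes. Leaving out 1 array at a time gave 87 to 261 calls in all. The higher calls numbered 66 without injured replicate 3 at 3 months (with 135 lower) and 2 without opposite replicate 2 at 12 months (with 85 lower). The lower difference with the smallest p was that of Spc25. Spc25, a protein of the kinetochore, had 5.22, 5.02 and 5.25 on the injured arrays against 5.20, 4.99 and 5.07 on the opposite arrays at 3 months. Its change was 0.07 ± 0.13 at 3 months against 1.84 at 12 months (difference -1.77 ± 0.18, limma adjusted p = 1.2e-06). Prr11, a cell cycle gene, changed by 0.61 against 1.88 (-1.27 ± 0.14, limma adjusted p = 2.2e-06). Ect2, which sets the plane of cell cleavage, had 4.13, 4.32 and 4.30 on the injured arrays against 3.63, 3.50 and 3.62 on the opposite arrays at 3 months. Both groups lay at or below the floor, so no fold is given for them. Its fitted change at 12 months was 1.89, and the fitted difference was -1.23 ± 0.13 (limma adjusted p = 1.8e-06).

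Of 27 kinesins, the motors of microtubules, 7 had a called lower difference between the ages and 0 a higher one. Kif20b had 3.68, 3.66 and 3.36 on the injured arrays against 3.19, 3.32 and 3.24 on the opposite arrays at 3 months, again all below the floor, and a fitted difference of -1.04 ± 0.13 (limma adjusted p = 3.1e-05). Kif4a had 4.12, 4.48 and 4.01 against 3.69, 3.46 and 3.78, with the opposite arrays below the floor, and a fitted difference of -1.52 ± 0.23 (adjusted p = 0.00025). Of 32 histone genes 9 had a lower and 0 a higher difference, among them the linker histone H1f5 at -0.02 against 1.59 (-1.61, adjusted p = 0.0015). Of 16 MCM and origin proteins 3 had a lower difference, led by Gins1 at 0.46 against 1.88 (-1.42, adjusted p = 0.00024). Tjp1, a scaffold of tight junctions and no cell cycle gene, changed by 0.61 ± 0.15 against 2.30 (-1.68 ± 0.21, adjusted p = 2.2e-05). Among the 18 genes with a higher difference, Gas7, a growth arrest gene tied to actin, had 5.68, 5.54 and 5.02 against 4.48, 4.37 and 4.50 at 3 months and changed by 0.96 ± 0.12 against 0.22 at 12 months (0.74 ± 0.17, adjusted p = 0.021). Grem1, an inhibitor of bone morphogenetic proteins, changed by -0.17 against -0.84 (0.67 ± 0.15, adjusted p = 0.018), and Col23a1, a membrane collagen, by 0.08 against -0.61 (0.69 ± 0.15, adjusted p = 0.014).

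Against day 14 of 3-month rats, where 13.2% of genes were called higher and 7.09% lower, the difference of the changes was called higher on day 3 for 145 genes (1.24%) and lower for 300 (2.57%). Of the 185 genes called at least 2-fold higher on day 3, 117 were also called higher on day 14, and of the 46 called lower, 44 were also called lower. A difference was called for 64 of the 185 and 11 of the 46. These genes were picked by the day 3 change that enters the difference, so these counts cannot be read against the shares of all genes. Leaving out 1 array at a time gave 255 to 568 calls in all (255 without replicate 1 of the injured hemisphere on day 14), and a fit to the arrays compared alone gave 141. Without injured replicate 3 of day 3, 235 were higher and 326 lower. Slpi changed by 3.28 on day 3 against -0.21 on day 14 (difference 3.48 ± 0.53, limma adjusted p = 0.00015). S100a6, a calcium-binding protein of the monocyte marker list, had 8.99, 8.01 and 6.81 on the injured arrays against 5.45, 5.31 and 5.46 on the opposite arrays on day 3, and changed by 2.53 against -0.11 (2.64 ± 0.40, adjusted p = 0.00015). Lrg1, a secreted leucine-rich glycoprotein of neutrophil granules, had 7.64, 7.70 and 6.20 against 4.93, 5.07 and 4.80, and changed by 2.24 against -0.18 (2.42 ± 0.35, adjusted p = 0.0001). Cdkn3, a phosphatase of cell cycle kinases, changed by 1.59 against 0.24 (1.35 ± 0.21, adjusted p = 0.00018), and Racgap1, a protein of cell cleavage, by 1.01 against -0.11 (1.12 ± 0.16, adjusted p = 5e-05). S100a9 and S100a8 changed by 3.02 and 2.97 on day 3 against -1.59 and -1.45 on day 14. Of the 14 monocyte and 9 border macrophage markers, 5 each had a called higher difference, against 1.24% of all genes. The lists share members, and 1 monocyte marker had a called lower difference.

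Among the lower differences between the days, C3 had the smallest p. C3, the central complement protein, had 8.80, 8.76 and 8.75 on the injured arrays against 9.42, 9.08 and 9.22 on the opposite arrays on day 3, a fall of 0.47 ± 0.10, against a rise of 1.14 on day 14 (difference -1.61 ± 0.14, limma adjusted p = 2e-08). Serping1, the inhibitor of complement C1, had 4.37, 4.64 and 4.55 against 4.18, 4.09 and 4.21 on day 3, with the opposite arrays below the floor, and was not called (adjusted p = 0.27). Its fitted change on day 14 was 3.51, and the fitted difference, which rests on signals below the floor, was -3.16 ± 0.29 (adjusted p = 7.9e-08). Abca1, the cholesterol exporter, had 9.05, 9.06 and 8.90 against 7.88, 7.89 and 7.98 and rose by 1.09 ± 0.08, against 2.25 on day 14 (-1.16 ± 0.12, adjusted p = 3.7e-07). Gaa, the lysosomal glucosidase of glycogen, stood at 0.17 ± 0.08 and was not called, against 1.30 on day 14 (-1.13 ± 0.12, adjusted p = 4e-07). Slc7a2, a carrier of arginine, stood at -0.17 ± 0.12 on day 3 against 1.40 on day 14 (-1.57 ± 0.17, adjusted p = 5.7e-07). Of 12 cathepsins 5 had a called lower difference between the days, and on day 3 itself 5 fell and 3 rose (3 fell without both arrays of animal 1 or of animal 2). Among the heat shock genes, Hspb1 changed by -1.16 on day 3 against -0.54 on day 14 (-0.62 ± 0.16, adjusted p = 0.025) and Dnaja1 by -1.02 against -0.31 (-0.71 ± 0.15, adjusted p = 0.0056). Csf2ra rose more on day 3 (1.80) than on day 14 (1.06), with a difference of 0.74 ± 0.16 (adjusted p = 0.007). The 2 comparisons share the 6 arrays of 3 months and day 3, so the age and day differences are not independent of each other. A number of unstated meaning in the sample codes also differs between the 3 pairs of groups, and it cannot be told apart from age and day in these differences.

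**Figure D5:**
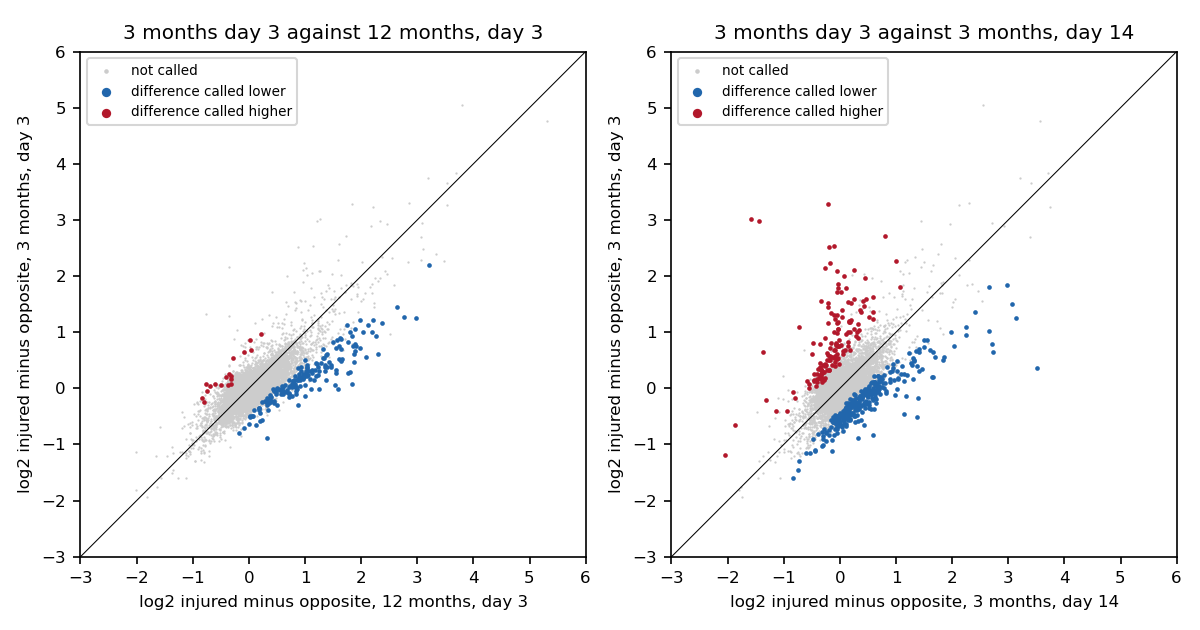
Log2 change, injured minus opposite, of each of the 11675 genes at 3 months on day 3 (vertical axis) against that at 12 months on day 3 (left) and at 3 months on day 14 (right). Points are coloured where the difference of the changes was called, 18 higher and 166 lower on the left and 145 higher and 300 lower on the right, and the line marks equal changes.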

How the data were processed

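RNA of rat microglia was measured on 30 Affymetrix Rat Gene ST arrays in 10 groups of 3, of which 6 arrays form the comparison. The authors deposited log2 values after RMA in Expression Console of Affymetrix; both names come from the submitters' processing notes, without a version. Depth has no meaning for arrays, and their number limits the precision.

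A single symbol could be assigned to 15310 of the 29214 probe sets, several to 323, and 13581 were not listed. Probe sets above their array's 30th percentile on at least 3 arrays were kept, the brightest per gene was used, and 11675 genes were tested. A model of 10 group means over the 30 arrays was fitted with limma 3.58.1 in R 4.3.3 (20 residual and 8.8 prior degrees of freedom), with Benjamini-Hochberg adjustment at 0.05. All adjusted p-values are limma's. Differences between hemisphere effects were contrasts in the same model. The sample codes name the animal, and both hemispheres of an animal share a replicate number, so the numbers pair the samples. The model has no animal term, and fits with the animal as a block are alternatives. Deviations of paired arrays from their group means correlated at 0.05, 0.20 and -0.04. The fit was tested on simulated data.

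The members and lists were chosen with earlier results of these data known. The heat shock group, the runs of C and T, the motif GAANNTTC and 1 other, and leaving out whole animals were added after seeing the data. Genes were named where among the 15 largest non-overlapping rises or falls with the same sign in every animal, the 3 largest in either direction of a described list, the 5 smallest p-values in either direction of a difference test, or the 5 widest ranges over animals. Actg1, Atf4, H1f5, Slc16a1, Slc44a2, Hspd1, Hsph1, Hsp90aa1, Dnajb1, Hspa5 and Hsp90b1 were named after their values were seen, and Actb and Hmox1 as well-known members that were not called. Promoters (RefSeq, GRCr8) were found for 9672 of the 11675 genes. The sample codes also hold a number of unstated meaning that is shared by all 6 arrays but differs for sham arrays, which were therefore not compared. Results of other gene lists that were counted are not reported here, and the lists described were picked with their counts known.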

Additional observations from a re-analysis of the deposited data

Results flagged for a closer look

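The change between hemispheres at 3 months on day 3 differed from that at 12 months for 184 genes and from that on day 14 for 445 genes, by limma's test of the difference itself. Among the genes described above, the difference between the ages (3 minus 12 months) was -1.77 for Spc25, -1.68 for Tjp1, -1.61 for H1f5, -1.52 for Kif4a, -1.42 for Gins1, -1.27 for Prr11, -1.23 for Ect2, -1.04 for Kif20b and -0.8 for Racgap1. It was 0.74 for Gas7, 0.69 for Col23a1 and 0.67 for Grem1. At 3 months on day 3 the signals of Ect2 and Kif20b lay at the floor in both hemispheres, and those of Kif4a and Serping1 in the opposite hemisphere. The values given for these 4 genes are fitted differences that rest in part on signals treated as not measurable, so their size and order among the others carry no weight.

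The difference between the days (day 3 minus day 14) was positive, at 4.61 in S100a9, 4.42 in S100a8, 3.48 in Slpi, 2.64 in S100a6, 2.42 in Lrg1, 2.41 in Clec4d and 1.83 in Ccl6. It was 1.35 in Cdkn3, 1.33 in Il1r2, 1.28 in Slc16a3, 1.27 in Gda, 1.2 in Xdh, 1.15 in Dusp2, 1.12 in Racgap1 and 1.05 in Il3ra. It was 0.86 in Gas7, 0.78 in Rab13, 0.74 in Csf2ra, 0.66 in Prr11, 0.62 in Grem1 and 0.61 in Ect2. The difference was negative in Serping1 at -3.16, C3 at -1.61, Slc7a2 at -1.57, Abca1 at -1.16 and Gaa at -1.13. It was -0.78 in Dctd, -0.75 in Ptgs1, -0.72 in F11r, -0.71 in Dnaja1, -0.7 in Slc44a2, -0.62 in Hspb1, -0.56 in Sall1, -0.55 in Il6st, -0.52 in Srsf10 and -0.42 in Vsir.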

How the results depend on the processing

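Leaving out 1 array gave 1798 to 2176 called genes against 2384, and leaving out both arrays of an animal gave 1456 (without animal 1) to 1985. Testing all probe sets, of which there are more than genes, gave 3780. The share of calls that were higher was 56.2%, against 46.2% without opposite replicate 2, and no scaling moved it by over 10 points. With the animal as a block, 2537 genes (random) and 1746 (fixed, on the 6 arrays, against 1605 without the block) were called. The age difference had 184 calls, 106 after quantile normalization, 353 with array weights, 251 and 164 with the replicate block, and 87 to 261 without 1 array (96 and 105 without opposite replicates 3 and 1, and 110 without injured replicate 2, at 3 months on day 3). Without a whole animal it had 125 to 143 (55 higher and 88 lower without animal 3). The day difference had 445 calls, 545 and 116 with the replicate block (random and fixed), 141 on the arrays compared alone, 255 to 568 without 1 array (281 and 286 without opposite replicate 1 and injured replicate 2 of day 3) and 252 (without animal 1) to 457 without a whole animal. The causes were not tested. Of 4042 values of the named genes under these alternatives 220 lost their call and none was reversed, and 144 of 179 gene results stayed on their side of the threshold throughout. With the animal as a fixed block 27 lost their call, and without animal 1, 22. Most named genes were picked for large or clear changes in these same data, so these counts do not speak for genes at large. Arrays limit dim genes: in 469 genes the opposite hemisphere lay at the floor on all 3 arrays.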
